A study of Mus musculus with 13 samples.

Results

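The genes described here encode the basement membrane that parietal endoderm lays down, together with markers of that cell type: the laminin chains Lama1, Lamb1 and Lamc1, the collagen IV chains Col4a1 and Col4a2, the linker genes Nid1 and Hspg2, the matrix protein gene Sparc, and the genes of thrombomodulin (Thbd) and tissue plasminogen activator (Plat). They were chosen by name, by a rule that uses no measured value but was written with earlier results of these data known. All 10 were found among the 38377 gene identifiers of the count table, and all 10 passed the filter on low counts in each of the 7 comparisons. RNA was sequenced in bulk from 13 mouse libraries of female cell lines to ask what loss of Xist, the RNA that silences an X chromosome, does in cells of 2 lineages.

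Extraembryonic endoderm (XEN) cells are stem cells of the primitive endoderm lineage, grown here in DMEM with serum. XEN libraries were wild type (n = 2), deleted for paternal Xist (dXist, n = 3), wild type treated with 20 uM 5-aza-2'-deoxycytidine, which blocks DNA methylation (Aza, n = 2), or dXist and treated (n = 2). Epiblast stem cells (EpiSC), which come from the pluripotent layer that forms the embryo proper, were grown on matrigel with FGF2 and Activin and were wild type (n = 2) or carried a heterozygous Xist deletion (dXist, n = 2). No source used here says how many independent clones or cultures stand behind the replicates. Each p-value therefore measures spread between libraries, which may be technical. Strain and duration of treatment are not stated either.

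Parietal endoderm lines the yolk sac and secretes Reichert's membrane, a thick basement membrane that faces the trophoblast. Its laminin is a cross-shaped heterotrimer of an alpha, a beta and a gamma chain, and its collagen IV is a triple helix of alpha 1 and alpha 2 chains. Nidogen and the heparan sulphate proteoglycan perlecan (Hspg2) connect the laminin and collagen networks, and SPARC is a collagen-binding glycoprotein that parietal endoderm makes in large amounts. Thrombomodulin (Thbd) is a thrombin receptor and tissue plasminogen activator (Plat) cleaves plasminogen; both are classical markers of parietal endoderm formed in culture.

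Total counts ran from 5848454 to 35247432 per library, and 3 counts corresponded to between 0.0815 and 0.498 CPM (a gene's count scaled to library size, with TMM factors). The libraries fell into 2 types by the share of counts on the non-polyadenylated RNAs mt-Rnr1, mt-Rnr2 and Rn7sk: 10.4 to 13.5% in 4 libraries (total-like) and at most 0.279% in the other 9 (polyA-like). The total-like libraries were both treated wild-type XEN libraries and replicate 2 of each EpiSC group. Xist, the targeted gene, stood at 1550 and 1586 CPM in the untreated wild-type XEN libraries and at 1.16 to 4.78 CPM in dXist XEN. In treated wild-type XEN it stood at 1626 and 1214 CPM. It was counted at 14.6 CPM in the library labelled treated dXist XEN 1 and at 242 CPM in the library labelled treated dXist XEN 2, so the latter stands apart from the other Xist-deleted libraries. Wild-type EpiSC had 815 and 206 CPM of Xist, and dXist EpiSC 0.435 and 0.276 CPM. The treated wild-type XEN replicates were far more alike than any other pair of replicates (chi-square of 3.89 per gene, against 75.5 to 524) but differed by more than sampling noise and were kept as 2 libraries. Cell type markers followed the labels: between the wild-type groups all 10 extraembryonic endoderm regulators tested were lower in EpiSC, and 18 of 20 epiblast markers were higher there with 0 lower.

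On GRCm38 (GENCODE vM21), Lama1 lies at chr17:67697259-67822647, Lamb1 at chr12:31265234-31329644 and Lamc1 at chr1:153218922-153332786. Col4a1 (chr8:11198423-11312826, minus strand) and Col4a2 (chr8:11312805-11449287, plus strand) stand head to head and share 22 exonic bases on opposite strands. Nid1 lies at chr13:13437551-13512269, Hspg2 at chr4:137468769-137570630, Sparc at chr11:55394500-55423183, Thbd at chr2:148404466-148408188 and Plat at chr8:22757727-22782844. Nid1 shares 143 exonic bases with the opposite-strand gene Gm48682, and Col4a2 shares 43 with Gm15419. No source used here gives the strand setting of the counting, so reads over these bases cannot be assigned, but the highest count of Gm48682 in any library was 19 and that of Gm15419 was 373, against up to 546914 for Col4a2.

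RefSeq windows on GRCm38.p6 were at hand for 6 of the 10 genes (Hspg2, Col4a1, Col4a2, Sparc, Lamb1 and Nid1). The shared start of the collagen pair is shown because both chains are read outward from it. The stretch just before the first annotated exon is shown for Lamb1, Nid1 and Hspg2. These are the plus-strand genes among the 6 whose window holds no exon of another gene. Capitals mark the GC box GGGCGG on either strand (CCGCCC on the other), and all are written 5′ to 3′ on the plus strand.
Col4a1 and Col4a2 shared start, chr8:11312805-11312826: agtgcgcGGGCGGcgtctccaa
Lamb1, chr12:31265043-31265233: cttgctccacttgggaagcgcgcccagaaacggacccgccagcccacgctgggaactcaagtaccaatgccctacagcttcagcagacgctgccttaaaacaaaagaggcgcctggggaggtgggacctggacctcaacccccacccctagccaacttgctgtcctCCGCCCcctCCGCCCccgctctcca
Nid1, chr13:13437352-13437550: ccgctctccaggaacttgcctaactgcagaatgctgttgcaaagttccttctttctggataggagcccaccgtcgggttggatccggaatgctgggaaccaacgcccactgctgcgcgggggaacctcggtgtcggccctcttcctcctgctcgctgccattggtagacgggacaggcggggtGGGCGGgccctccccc
Hspg2, chr4:137468553-137468768: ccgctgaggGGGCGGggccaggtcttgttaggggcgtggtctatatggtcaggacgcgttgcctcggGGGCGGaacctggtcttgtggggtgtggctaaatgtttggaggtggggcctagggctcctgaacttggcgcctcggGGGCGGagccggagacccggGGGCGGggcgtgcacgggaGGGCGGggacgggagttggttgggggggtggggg
In the 250 bases before the RefSeq start, GGGCGG occurred 5 times for Hspg2, 2 times each for Lamb1 and Col4a2, 1 time for Nid1 and 0 times for Col4a1 and Sparc, and 32.7% of all 32817 windows of that length held it. The motif CCAAT (or ATTGG) occurred 1 time each for Col4a1, Col4a2, Lamb1 and Nid1, against 33.8% of windows with at least 1. The GATA-type motif AGATAA (or TTATCT) was in none of the 6 windows and in 9.99% of all windows. The window of each collagen gene holds exon sequence of the other, and the GC box marked in their shared start lies in neither window. These are counts of letters, not binding sites.

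XEN cells devoted a large part of their messenger RNA to these genes. In 8 of the 9 XEN libraries the 10 genes together took 7.45 to 12.0% of all counts, and in treated dXist library 1 they took 3.37%. In the 4 EpiSC libraries they took 0.242 to 0.302%. Ranked by CPM per kilobase of exon over all genes, Sparc ranked between 1 and 15 in the 9 XEN libraries (median 2), Col4a1 between 2 and 42, Col4a2 between 4 and 80, Lama1 between 4 and 49, Lamc1 between 5 and 33 and Lamb1 between 12 and 38. Nid1 ranked between 54 and 747, Hspg2 between 253 and 2053 and Plat between 688 and 2220. Thbd, between ranks 6096 and 18102, was the exception: this parietal endoderm marker was near the detection floor in some XEN libraries.

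**Figure D1:**
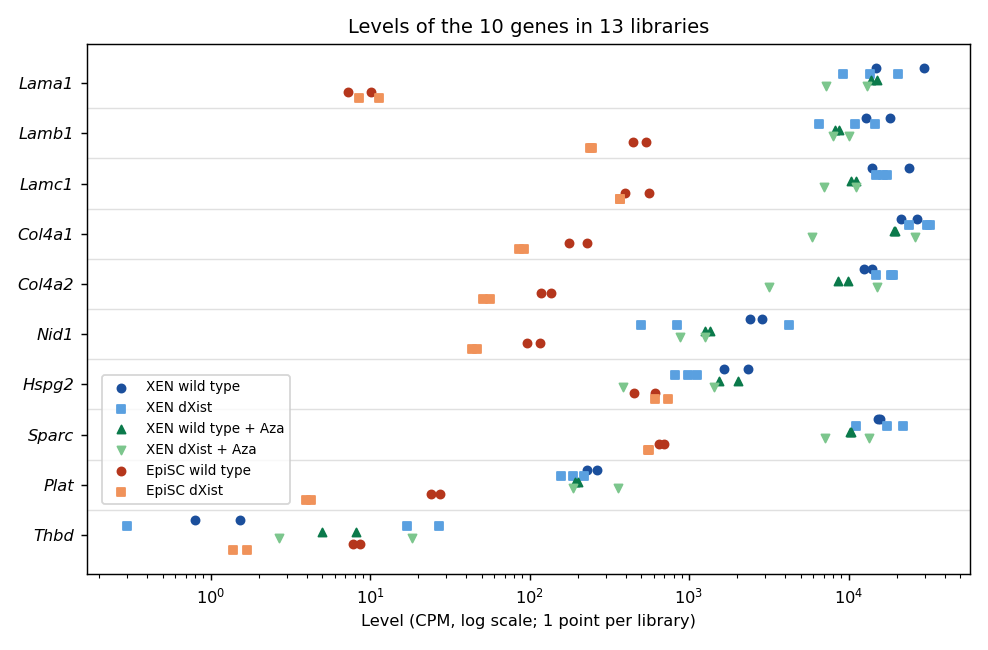
Level of each of the 10 genes in CPM (horizontal, log scale), with 1 point per library and colour and shape for the group. Blue and green XEN points lie far to the right of red and orange EpiSC points for the laminin, collagen IV, Nid1, Sparc and Plat genes, and overlap with them for Hspg2 and Thbd.

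How the 2 lineages differ in these genes was read from their wild-type libraries. Of the 10 genes 9 were lower in EpiSC at an adjusted p under 0.05 (edgeR quasi-likelihood test, Benjamini-Hochberg over 19733 genes), where 14.1% of all genes tested were called lower. Libraries of the 2 groups did not overlap for any of the 10, which held for 66.4% of all genes tested. The median log2 change of the 10 was -4.81, against 0.13 for all genes tested. In bulk RNA, fewer cells of a type and less RNA per cell cannot be told apart.

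Among the laminin chains the alpha chain differed most. Lama1, the alpha 1 chain, was at 14784 and 29603 CPM in wild-type XEN and at 7.25 and 10.07 CPM in wild-type EpiSC. That is a 2564-fold lower level (log2 change -11.32, SE 0.83, edgeR adjusted p = 6.9e-05). Lamb1, the beta 1 chain, stood at 12804 and 18073 CPM in XEN and at 536 and 442 CPM in EpiSC (31.6-fold lower, log2 change -4.98, SE 0.56). Lamc1, the gamma 1 chain found in most laminins, stood at 14036 and 24024 CPM against 558 and 395 CPM (log2 change -5.32, SE 0.54). No EpiSC library came near a XEN library for any of these 3 chains, and the 95% interval of Lama1 (-13.19 to -9.46) did not meet those of Lamb1 (-6.25 to -3.72) or Lamc1 (-6.52 to -4.12).

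Collagen IV followed. Col4a1 was at 21329 and 26852 CPM in wild-type XEN and 176 and 229 CPM in wild-type EpiSC (119-fold lower, log2 change -6.90, SE 0.56, edgeR adjusted p = 9.5e-05). Col4a2 was at 12540 and 14085 CPM against 136 and 118 CPM (log2 change -6.71, SE 0.52, edgeR adjusted p = 8.8e-05). The 2 chains had overlapping 95% intervals of -8.16 to -5.63 and -7.87 to -5.55.

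The linkers differed less and not alike. Nid1, nidogen 1, was at 2882 and 2425 CPM in XEN and 116 and 96.3 CPM in EpiSC (log2 change -4.65, SE 0.96, edgeR adjusted p = 0.00669). Without EpiSC library 1 or library 2 its adjusted p was 0.0645 or 0.056. Hspg2, perlecan, was at 1654 and 2342 CPM in XEN and 452 and 613 CPM in EpiSC, a 3.75-fold difference (log2 change -1.91, SE 0.38, edgeR adjusted p = 0.00582) and the smallest among the 9 genes called. Its libraries still did not overlap.

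Sparc was at 15282 and 15638 CPM in XEN and 645 and 695 CPM in EpiSC (log2 change -4.53, SE 0.52, edgeR adjusted p = 0.000408). Although 23.1-fold lower, Sparc was still the highest of the 10 genes per kilobase in EpiSC, at 177 ± 9.22 CPM per kb (SD, n = 2) in the wild type. Plat was at 264 and 229 CPM in XEN and 24.1 and 27.5 CPM in EpiSC (log2 change -3.26, SE 0.30, edgeR adjusted p = 0.000149). Thbd alone had the opposite sign: 1.54 and 0.80 CPM in XEN against 7.87 and 8.66 CPM in EpiSC. Its log2 change of 2.82 had an SE of 1.35 and did not pass (edgeR adjusted p = 0.136, 95% interval -0.23 to 5.87), although DESeq2 (adjusted p = 0.0383, with 21.9% of all genes called higher) and edgeR without a filter on low counts (adjusted p = 0.000598, 11.9%) called it higher.

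**Figure D2:**
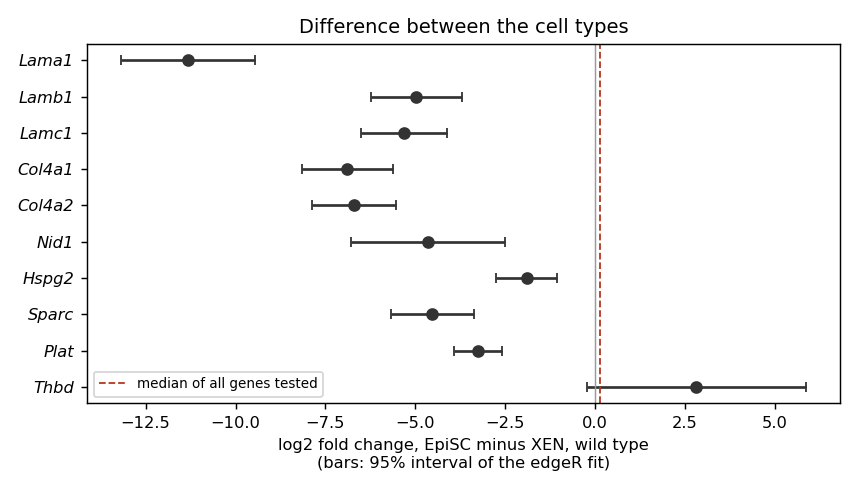
Log2 fold change of each gene between wild-type EpiSC and wild-type XEN (horizontal), with its 95% interval from the edgeR fit; the dashed line is the median of all genes tested (0.13). Lama1 lies farthest to the left at -11.32, Hspg2 is the closest to 0 of the 9 genes called, and the interval of Thbd crosses 0.

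The other genes of the pathway did not all follow. Their counts stand against 16.8% of all genes called higher and 14.1% called lower in this fit. Of 27 other basement membrane components 25 were tested, 10 were higher and 5 lower in EpiSC, with a median log2 change of 1.90. Among them Col18a1, the proteoglycan collagen XVIII, stood at 234 ± 63.4 CPM (SD, n = 2) in EpiSC and 0.845 CPM in XEN, and the collagen IV chain Col4a5 at 61.3 ± 7.37 against 0.033 CPM. Frem2, a component of epithelial basement membranes, was at 189 ± 16.4 against 0.839 CPM. Of 22 genes for collagen and laminin assembly in the endoplasmic reticulum 13 were lower and 0 higher (median -1.91). They include P4ha2, a prolyl hydroxylase subunit, at 25.8 ± 3.21 CPM in EpiSC against 1165 ± 259 CPM in XEN (SD, n = 2 each), P3h2, a prolyl 3-hydroxylase, and Plod3, a lysyl hydroxylase.

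Of 20 receptors for basement membrane 6 were higher and 3 lower, the latter a share close to that of all genes. The integrin alpha chain gene Itga1, which pairs with beta 1 to bind collagen, was higher (log2 change 8.51) and the fibronectin receptor chain gene Itga5 lower (log2 change -3.05). In the plasminogen, thrombomodulin and matrix protease list 4 of the 17 genes tested were higher and 6 lower. The coagulation genes F3 (tissue factor, log2 change -5.32) and Tfpi (its inhibitor, log2 change -6.65) were both lower in EpiSC. Tfpi stood at 415 ± 151 CPM in XEN and 4.10 ± 2.78 CPM in EpiSC (SD, n = 2 each). Other parietal endoderm markers were lower in 15 of 18 cases and higher in 2 (median -4.93). Several genes of that list, Sox7 among them, are also extraembryonic endoderm regulators, and Itga5 is also in the receptor list. The counts of these lists are therefore not independent. Sox7, a transcription factor gene of this lineage, was at 587 ± 140 CPM in XEN and 0.55 ± 0.18 CPM in EpiSC (SD, n = 2 each).

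Markers of other cell types were also present. Visceral endoderm markers summed to 1342 and 1822 CPM in wild-type XEN and to 523 and 651 CPM in wild-type EpiSC. Lrp2 (755 ± 239 CPM) and Apoe (399 ± 39.2 CPM; SD, n = 2 each) were the leading genes in XEN, where Alb and Cer1 were at 0. Both also led in wild-type EpiSC (means of 182 and 168 CPM), where Hnf4a, Apoa4 and Ttr were at 0. Of the 20 visceral endoderm markers, 15 had a mean over 1 CPM in wild-type XEN and 8 in wild-type EpiSC. Fibroblast and mesenchymal markers summed to 1726 and 2715 CPM in wild-type EpiSC and to at most 311 CPM in wild-type XEN. Fn1 made up most of the sum in both cell types, with 918 to 1786 CPM in wild-type EpiSC. Lum, Meox1 and S100a4 were at 0 in wild-type XEN. Of the 17 tested, 13 were higher in EpiSC, among them Col1a1 at 295 ± 112 CPM (SD, n = 2) and Col1a2 at 246 ± 29.6 CPM (SD, n = 2). Fibroblasts make Col4a1, Col4a2, Nid1 and Sparc as well, and the part of such cells in the EpiSC levels was not tested. Endothelial markers summed to 296 and 352 CPM in wild-type XEN and to 9.56 and 11.3 CPM in wild-type EpiSC, with Tek and Cdh5 the leading genes in XEN and Emcn and Robo4 at 0 there. Trophoblast markers summed to at most 37.0 CPM in any library, and Esrrb, Hand1, Tfap2c and Gcm1 were at 0 in wild-type XEN.

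The chains of each family were then set side by side per kilobase of exon. Lama1 made up 97.7 to 99.2% of laminin alpha chain RNA in the 9 XEN libraries and 2.48 to 4.30% in the 4 EpiSC libraries. In EpiSC Lama5, the alpha 5 chain, made up 74.6 to 92.4%, although its own level (148 to 492 CPM) overlapped that in XEN (69.1 to 477 CPM). The leading alpha chain therefore differed between the lineages in share, while the ranges of Lama5 itself overlapped. Lama4 took 4.81 to 20.5% in EpiSC and at most 0.253% in XEN.

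The beta chains kept their leading gene in both lineages. Lamb1 held 96.4 to 99.3% of the beta chain RNA in XEN and 77.3 to 93.4% in EpiSC, with Lamb2 most of the rest. For collagen IV, the other chains (Col4a3 to Col4a6) each took at most 0.0172% in XEN. The X-linked chain Col4a5 took 15.3 to 23.1% in EpiSC and Col4a6 3.45 to 9.41%, and their levels there were 41.7 to 66.5 CPM and 15.0 to 21.7 CPM.

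The linker families were mixed in both lineages. Nid1 made up 34.6 to 76.1% of nidogen RNA in XEN and 14.9 to 26.2% in EpiSC, Nid2 being the rest. Hspg2 made up 51.4 to 75.9% of the RNA of the basement membrane proteoglycans Hspg2, Agrn and Col18a1 in XEN and 43.1 to 51.6% in EpiSC. Col18a1 took at least 36.4% in EpiSC and at most 1.01% in XEN.

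**Figure D3:**
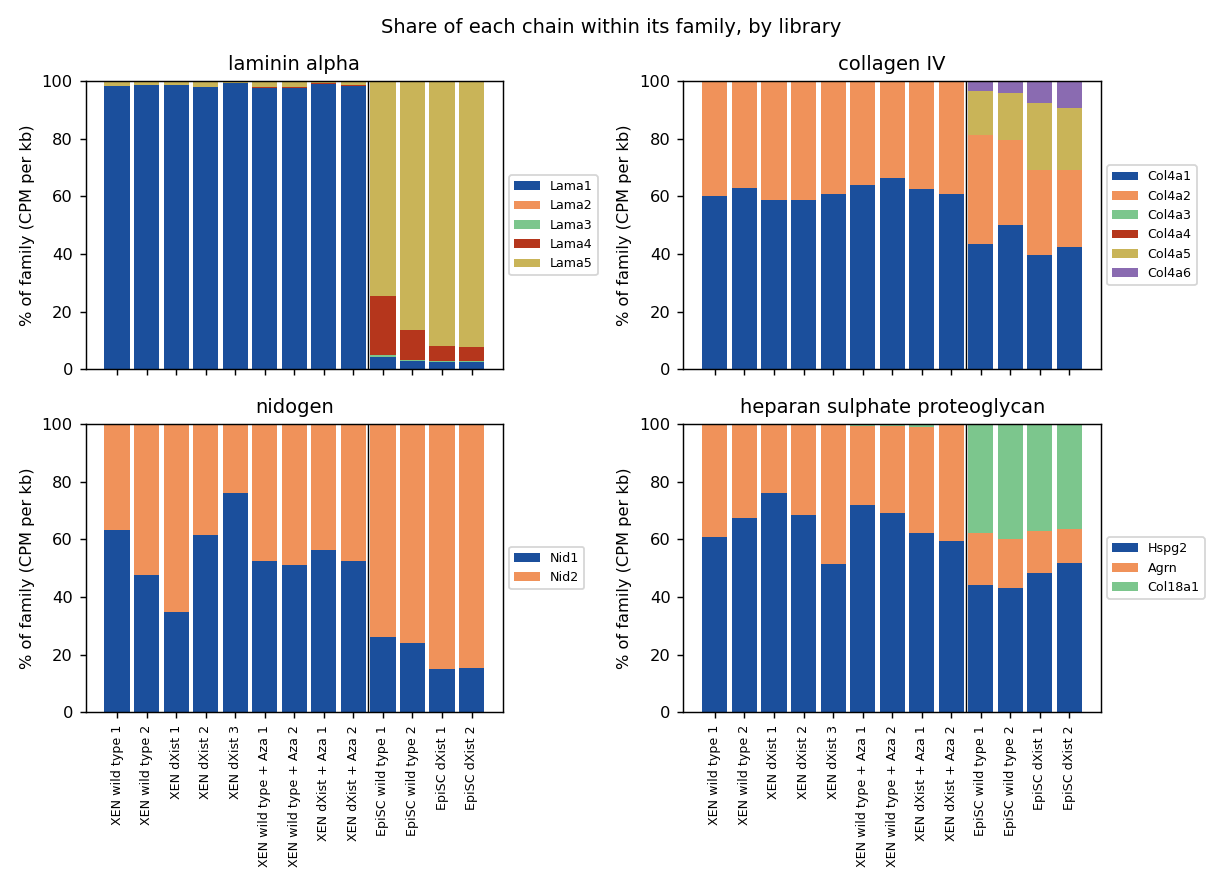
Share of each chain within its family by library, as a percentage of the summed CPM per kb of exon, for laminin alpha chains, collagen IV chains, nidogens and basement membrane proteoglycans; the vertical line separates the 9 XEN from the 4 EpiSC libraries. Lama1 fills nearly the whole bar in XEN and under 5% in EpiSC, where Lama5 leads, and Col4a5, Col4a6 and Col18a1 have visible shares only in the EpiSC bars.

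Chains that assemble together kept different degrees of balance in XEN cells. The per-kilobase ratio of Col4a1 to Col4a2, whose proteins join in one triple helix, was between 1.43 and 1.99 in the 9 XEN libraries (median 1.55) and between 1.15 and 1.71 in the 4 EpiSC libraries. Lama1 to Lamc1 was between 0.534 and 1.15 in XEN and between 0.0111 and 0.0266 in EpiSC. Lamb1 to Lamc1 was between 0.369 and 0.953 in XEN (median 0.659), a value that depends on the length taken for Lamb1 (9917 bases for the union of its exons, 5784 for its longest transcript). Across the 9 XEN libraries log2 levels of Col4a1 and Col4a2 had a Pearson correlation of 0.98 and those of Lama1 and Lamb1 of 0.86. Thbd had the lowest values, -0.12 with Lamc1 and 0.13 with the mean of the other members. These correlations describe libraries that differ in genotype, treatment and library type. Treated dXist library 1 stood far below the others for the collagen pair. Col4a1 was at 5920 CPM there and Col4a2 at 3157 CPM, against medians of 24022 and 14085 CPM over the 9 libraries. Correlations without that library were not tested.

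Within XEN cells the spread between libraries was large. From the lowest to the highest of 9 libraries, Plat differed 2.27-fold, Lamb1 2.75-fold, Sparc 3.09-fold, Lamc1 3.41-fold, Lama1 4.08-fold, Col4a1 5.50-fold, Hspg2 6.05-fold, Col4a2 6.06-fold, Nid1 8.57-fold and Thbd 90.2-fold. Treated dXist library 1 was the lowest of the 9 for 6 of the 10 genes, and wild-type library 2 was the highest for 4. The genes whose levels over the 9 XEN libraries were most like the members' mean profile, among 9327 compared, were Cdc42se1 (Pearson r = 0.97), Wdr6, Ssbp3, Bcl2l2 and Dffa (r = 0.95 each), all at levels of at most 134 CPM. That mean profile includes Thbd, which had the widest spread and a correlation of only 0.13 with the other members. Thbd may therefore weigh on this ranking. The mean profile was also lowest in treated dXist library 1, at -1.01 on the centred log2 scale. The next lowest, untreated dXist library 2, was at -0.454. Likeness to the members without Thbd, or without treated dXist library 1, was not tested.

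**Figure D4:**
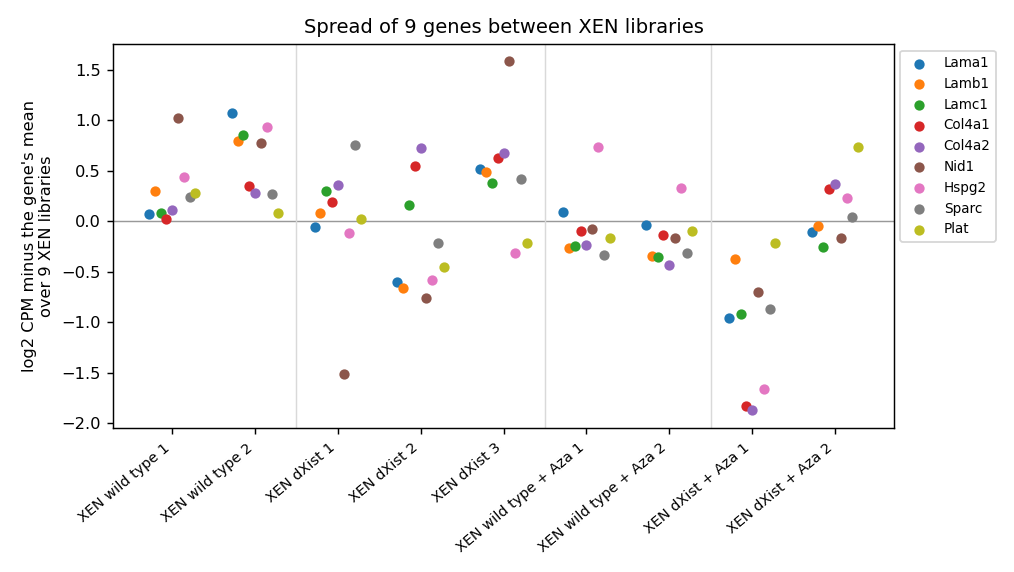
Log2 CPM of 9 genes (all but Thbd, which varied 90.2-fold) minus each gene's mean over the 9 XEN libraries (vertical), by library, with 1 colour per gene. Most genes lie low in treated dXist library 1, where Col4a1, Col4a2 and Hspg2 are farthest down, and Nid1 is spread widest among the dXist libraries.

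Xist deletion in XEN cells was tested on the 5 untreated libraries in the fit of all 9 XEN libraries. Of the 10 genes 0 were called, where 4 of 18393 genes were (0.0217%); at an unadjusted p under 0.05 there was 1 member, Thbd, of 1973 genes, and DESeq2 called 497 genes (2.7%) with 1 member, again Thbd (adjusted p = 0.0492). Without a filter on low counts, edgeR also called Thbd higher (edgeR adjusted p = 0.000165), among 303 of 35682 genes called higher. The members' median log2 change was -0.32, against 0.00 for all genes. Libraries of the 2 groups did not overlap for 3 members (Col4a2, Plat and Hspg2), where 28.3% of all genes tested did not overlap.

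Hspg2 was at 1129, 819 and 982 CPM in dXist against 1654 and 2342 CPM in the wild type (log2 change -1.04, SE 0.52, edgeR adjusted p = 0.502). Col4a2 was at 14898, 19118 and 18559 CPM against 12540 and 14085 CPM (log2 change 0.39, SE 0.59, edgeR adjusted p = 0.847). Col4a1 was at 24022, 30857 and 32534 CPM, with the lowest dXist library below the higher wild-type one. All 3 dXist libraries were above the wild type for Col4a2 and below it for Hspg2, and neither difference passed the test. The 95% intervals of the log2 change ran from -2.20 to 0.11 for Hspg2 and from -0.94 to 1.72 for Col4a2.

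Nid1 and Thbd varied most within the dXist group. Nid1 was at 497, 835 and 4259 CPM in dXist libraries 1 to 3, the last above both wild-type libraries. Without dXist library 3 its log2 change was -2.01 (edgeR adjusted p = 0.042), in a fit that called 510 genes (2.87%). Thbd was at 17.1, 0.30 and 27.0 CPM in dXist libraries 1 to 3 (log2 change 3.66, SE 1.49, edgeR adjusted p = 0.432), so one dXist library was lower than both wild-type libraries and the other 2 were far higher. The laminin chains overlapped between the groups: Lama1 stood at 13563, 9284 and 20274 CPM in dXist, Lamb1 at 11029, 6572 and 14643 CPM and Lamc1 at 16329, 14842 and 17322 CPM. Sparc, at 21836, 11163 and 17351 CPM, lay on both sides of the wild type.

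Aza treatment of wild-type XEN cells was compared with the untreated wild type. None of the 10 genes was called by edgeR with its filter on low counts, where 107 of 18393 genes were (0.582%). At an unadjusted p under 0.05 there were 0 members and 2279 genes, and DESeq2 called 646 genes (3.51%) and 0 members. Without the filter, edgeR called Thbd higher (edgeR adjusted p = 0.0444), among 519 of 35682 genes called higher. Of the members 9 had a negative log2 change, with a median of -0.47 against -0.04 for all genes. Libraries did not overlap for 8 members, where 59.8% of all genes did not; 7 of the 8 were lower, as were 31.7% of all genes. Both treated libraries were total-like and both untreated ones polyA-like, so the effects of Aza and of library type cannot be told apart.

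Lamc1 was at 11206 and 10399 CPM with treatment (log2 change -0.74, SE 0.47, edgeR adjusted p = 0.562), and Lamb1 at 8660 and 8217 CPM (log2 change -0.79, SE 0.49). Nid1 was at 1351 and 1262 CPM (log2 change -0.94, SE 0.85, edgeR adjusted p = 0.699), and Sparc at 10279 and 10428 CPM (log2 change -0.50, SE 0.49). For these 4 genes the treated libraries lay close together and below both untreated ones. Thbd, at 4.98 and 8.17 CPM, was the one gene with higher treated libraries (log2 change 2.58, SE 1.49, edgeR adjusted p = 0.523). Hspg2, at 2036 and 1539 CPM, overlapped the untreated libraries.

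In dXist XEN cells, where all libraries were polyA-like, treated and untreated libraries were compared in the same fit. No member was called, where 14 of 18393 genes were (0.0761%); 0 members and 4921 genes had an unadjusted p under 0.05, and DESeq2 called 2852 genes (15.5%) and 0 members. The median log2 change of the members was -0.74, against -0.02 for all genes, and 1 member (Lamc1, lower) had libraries that did not overlap, where 42.2% of all genes did not. The 2 treated libraries disagreed. Col4a1 was at 5920 CPM in treated library 1 and 26235 CPM in treated library 2, against 24022 to 32534 CPM untreated. Col4a2 was at 3157 and 14978 CPM, Hspg2 at 387 and 1434 CPM, and Sparc at 7076 and 13390 CPM.

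Treated dXist library 1 was therefore far below every untreated dXist library for the collagen pair, and treated library 2 was within or near their range. Without treated library 2, the one with 242 CPM of Xist, 3 members were called lower: Col4a1 (log2 change -2.53, edgeR adjusted p = 0.0121), Col4a2 (-2.70, 0.00766) and Hspg2 (-1.56, 0.0325), in a fit that called 2726 of 19827 genes lower (13.7%). That fit rests on a single treated dXist library, which is assumed to vary like the other groups. Without treated library 1, 0 members and 0 genes (0%) were called. Lamc1 was at 7042 and 11165 CPM treated against 14842 to 17322 CPM untreated (log2 change -0.97, SE 0.44, edgeR adjusted p = 0.189). Plat was at 187 and 360 CPM (log2 change 0.40, SE 0.35).

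The titles of the treated dXist libraries repeat the names of untreated dXist libraries 1 and 2, and whether each pair is one line is not stated. Nid1 was at 872 and 1267 CPM treated, and its log2 change over all dXist libraries was -0.96 (SE 0.79, edgeR adjusted p = 0.453). Against the untreated library of the same name it was higher in both pairs, by 0.81 and 0.60 on the log2 scale. With the replicate number as a block its log2 change was 0.56 (SE 0.41, edgeR adjusted p = 0.38), so its direction depends on dXist library 3, which has no treated partner.

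Whether Aza acted differently in dXist and wild-type XEN cells was tested as an interaction. It passed for 0 of the 10 genes, where 45 of 18393 genes were called (0.245%); 0 members and 1472 genes had an unadjusted p under 0.05, and DESeq2 called 215 genes (1.17%) and 0 members. Estimates ran from -3.19 (Thbd, SE 1.97) to 0.64 (Plat, SE 0.52), with intervals that span 0 in every case.

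In EpiSC the Xist deletion went with lower levels of several of these genes, a result whose call depended on the model. In the fit without a term for library type edgeR called 0 of 17132 genes (0%), hence 0 members; 6 members and 1741 genes had an unadjusted p under 0.05, and the smallest adjusted p of any gene was 0.102. With library type as a term, which in these 4 libraries is the same as the replicate number, edgeR called 1960 genes, 1119 of them lower (6.53%). Of the 10 members 5 were then called lower and 0 higher: Plat, Thbd, Col4a2, Nid1 and Col4a1. That fit leaves 1 residual degree of freedom per gene. Its p-values, here and for the single genes below, therefore rest mostly on spread shared over genes. They say little about the spread between replicates of the gene itself. A fit of all 13 libraries with the same term called 2 genes (0.00959%) and 0 members, with adjusted p = 0.0561 for Plat and 1 for the other 4 (edgeR). DESeq2 without the term called 377 genes lower (2.2%) and 6 members, the same 5 and Lamb1. Without the term and without a filter on low counts, edgeR called 530 of 30248 genes lower, Plat and Thbd among them.

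Plat changed most. It was at 24.1 and 27.5 CPM in wild-type EpiSC and at 3.99 and 4.28 CPM in dXist, 6.13-fold lower (log2 change -2.62, SE 0.27, edgeR adjusted p = 0.102). With library type as a term its log2 change was -2.61 (SE 0.36, edgeR adjusted p = 6.9e-11). Thbd was at 7.87 and 8.66 CPM against 1.68 and 1.38 CPM (log2 change -2.40, SE 0.34, edgeR adjusted p = 0.145, and 1.3e-07 with the term). For both genes the replicates lay within a narrow range and the groups stood well apart.

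The collagen IV pair was again alike. Wild-type libraries had 176 and 229 CPM of Col4a1 and dXist libraries 85.7 and 91.9 CPM (log2 change -1.17, SE 0.29, edgeR adjusted p = 0.305, and 0.00513 with the term). Col4a2 was at 136 and 118 CPM against 56.7 and 50.7 CPM (log2 change -1.22, SE 0.26, edgeR adjusted p = 0.246, and 0.00106 with the term). Nid1 was at 116 and 96.3 CPM against 46.6 and 43.7 CPM (log2 change -1.21, SE 0.26, edgeR adjusted p = 0.246, and 0.00107 with the term). These 3 genes had much the same fold difference, and for each of them both dXist libraries lay below both wild-type ones.

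Among the laminins only the beta chain came close to a call by edgeR, and DESeq2 called it lower (DESeq2 adjusted p = 0.0337). Lamb1 was at 536 and 442 CPM against 238 and 246 CPM (log2 change -0.99, SE 0.30, edgeR adjusted p = 0.386, and 0.052 with the term). Lamc1 was at 558 and 395 CPM against 369 and 368 CPM (log2 change -0.35, SE 0.33, edgeR adjusted p = 0.762). Lama1, at 7.25 and 10.07 CPM against 8.53 and 11.5 CPM, and Hspg2, at 452 and 613 CPM against 610 and 743 CPM, had estimates above 0 with overlapping libraries (log2 changes 0.23, SE 0.33, and 0.37, SE 0.36). Sparc was at 645 and 695 CPM against 555 and 561 CPM (log2 change -0.24, SE 0.32, 95% interval -1.05 to 0.57). In all, 8 of the 10 members had dXist libraries below both wild-type libraries, where 22.3% of all genes tested did, and the members' median was -1.08 against 0.00 for all genes.

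Within each library type the direction was the same for every member. In the polyA-like pair the log2 differences were -2.45 for Plat, -1.94 for Thbd, -1.30 for Nid1, -1.26 for Col4a2, -1.17 for Lamb1 and -1.04 for Col4a1. In the total-like pair they were -2.55, -2.28, -1.13, -1.21, -0.85 and -1.31 in the same order. Each pair holds 1 library per genotype, so neither has a test of its own.

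**Figure D5:**
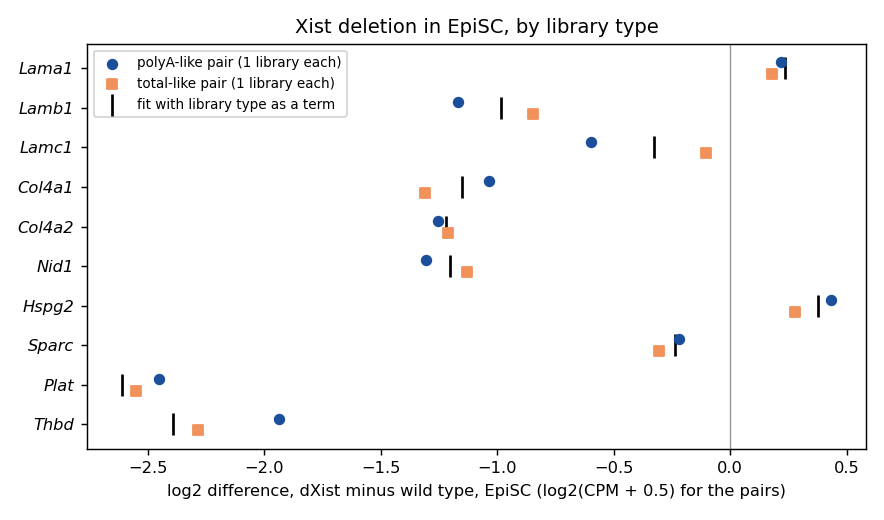
Log2 difference between dXist and wild-type EpiSC (horizontal) for the 10 genes, in the polyA-like pair (blue circles), in the total-like pair (orange squares) and in the fit with library type as a term (black bars). Both pairs lie left of 0 for 8 genes, with Plat and Thbd farthest at about -2 or below, and right of 0 for Lama1 and Hspg2.

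Other lists gave these counts in the EpiSC fit with library type as a term, where 4.91% of all genes were called higher and 6.53% lower. Of 23 other basement membrane components tested 1 was higher and 1 lower (median -0.04). Hmcn1, hemicentin 1, was at 9.30 ± 2.67 CPM in dXist and 60.0 ± 9.89 CPM in the wild type (SD, n = 2 each; log2 change -2.69). Of 22 assembly genes 3 were lower and 0 higher, among them P3h2 (log2 change -2.19) and P4ha3 (-2.25). Of 14 genes of the plasminogen, thrombomodulin and protease list 6 were lower and 0 higher. They include Timp2, a metalloproteinase inhibitor, at 11.8 ± 2.79 against 56.8 ± 16.8 CPM, Plau, the urokinase gene, at 2.96 ± 0.35 against 8.72 ± 0.68 CPM, and F2r, the thrombin receptor gene, at 81.4 ± 7.03 against 191 ± 26.9 CPM (SD, n = 2 each). That list holds Plat's relatives and shares no gene with the 10 members.

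Other parietal endoderm markers did not go one way. With the term 2 were higher and 1 lower of 16 tested, with Pth1r, the parathyroid hormone receptor gene, at 29.1 ± 0.96 CPM in dXist and 3.25 ± 0.68 CPM in the wild type (SD, n = 2 each; log2 change 3.20), Krt18 higher (1.08) and Fst lower (-1.79). Extraembryonic endoderm regulators had 0 called of 7 tested. Of the fibroblast and mesenchymal markers, 11 of 17 tested were lower and 0 higher with the term (median -1.88). Their sum was 985 and 1093 CPM in dXist, against the 1726 and 2715 CPM of wild-type libraries. Fn1 made up most of these sums, with 756 to 803 CPM in dXist, and Lum and S100a4 were at 0 there. Col3a1, the chain of collagen III, stood at 142 ± 9.07 CPM in the wild type and 5.21 ± 0.59 CPM in dXist (SD, n = 2 each), and Dcn, decorin, at 7.73 ± 0.12 against 0.151 ± 0.018 CPM. The part of fibroblast-like cells in the lower levels of Col4a1, Col4a2, Nid1, Plat and Thbd was not tested. Endothelial markers summed to 9.56 to 11.3 CPM in the wild type and 13.1 to 13.4 CPM in dXist.

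The deletion effect in EpiSC was finally set against that in XEN as an interaction over the 9 untreated libraries. It passed for 0 members, where 2 of 19733 genes were called (0.0101%); 5 members and 2041 genes had an unadjusted p under 0.05, and DESeq2 called 426 genes, with 4 members lower (Col4a1, Col4a2, Thbd and Plat; 1.12% of all genes lower). Plat came nearest in the edgeR fit, with a difference of -2.22 (SE 0.39, edgeR adjusted p = 0.144, and 0.0242 with the replicate number as a block, where 1.69% of all genes were called lower). Its level in dXist XEN was 158 to 220 CPM against 229 and 264 CPM in the wild type, and in dXist EpiSC 6.13-fold below the wild type. The differences for Col4a1 and Col4a2 were -1.44 (SE 0.60, edgeR adjusted p = 0.454) and -1.61 (SE 0.55, edgeR adjusted p = 0.407), that for Hspg2 1.41 (SE 0.50, edgeR adjusted p = 0.414), and that for Thbd -6.05 (SE 1.89, edgeR adjusted p = 0.362). Without a filter on low counts, edgeR called 335 of 34931 genes lower, Thbd (edgeR adjusted p = 3.3e-07) and Plat (0.0116) among them. By the edgeR test with the filter and without a block, the effect of deletion on these genes is not shown to differ between the lineages.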

How the data were processed

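The authors' deposited table gives raw, unnormalised read counts for each gene in 13 bulk RNA-seq libraries. Per the submitters' processing notes, FastQC, STAR 2.7.9a and featureCounts 2.0.1 were used with GRCm38 (mm10). Per the labels' protocols, RNA was total RNA taken with Trizol, and NEBNext Ultra and TruSeq stranded kits are named without saying which library had which. Of the annotation release, the counting strand and the handling of multiple alignments, none is given in the sources used here. Counts that fall where genes overlap cannot be split.

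GENCODE vM21 gave symbols for 38240 of 38377 identifiers (99.6%), positions and exon lengths. Counts were scaled by TMM, filtered with filterByExpr and tested with the quasi-likelihood F test of edgeR 4.0.16 (limma 3.58.1, R 4.3.3) with robust dispersion. Fits were made of the 9 XEN, the 4 EpiSC and the 9 untreated libraries. A call is a Benjamini-Hochberg adjusted p under 0.05 over all genes tested. Levels per kb divide CPM by the union of a gene's exons. Pair differences add 0.5 CPM before log2. Correlations use log2 of the same sum, over genes of at least 10 CPM for the likeness ranking. A library was called total-like where mt-Rnr1, mt-Rnr2 and Rn7sk took at least 5% of counts.

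Alternatives were DESeq2 1.42.0, its size factors in edgeR, no filter, each library left out, the replicate number as a block, and a joint fit of the 13 libraries that includes library type. All 10 members are named, with up to 3 genes with the smallest adjusted p from each other list and comparison, at a group mean of at least 1 CPM. Xist is named as the check of the labels, and the 5 genes most like the members' mean by Pearson correlation. Fn1, Lrp2, Apoe, Tek, Cdh5 and marker genes at 0 were named after their values were seen, and so were the chain family partners. The members and lists were chosen with earlier results of these data known. Shares within the laminin gamma family are not reported here. Scripts were tested on simulated data. Titles of treated and untreated dXist XEN libraries share names, without saying that they share a line. Replicate numbers were not taken to pair the XEN libraries: deviations of same-numbered libraries from their group means had correlations of -0.13 to 0.12 over the XEN groups. In EpiSC the correlation was 0.77. This is 1 value, because in groups of 2 libraries both replicate numbers must give the same correlation. The replicate number in EpiSC coincides with library type.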

Additional observations from a re-analysis of the deposited data

How the results depend on the processing

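The 9 genes called lower in EpiSC against XEN kept direction and call in each alternative except Nid1 without EpiSC library 1 or 2, and genes called there numbered 3045 to 4864 with a library left out. Genes called for Xist deletion in XEN numbered 497 with DESeq2, 684 without a filter, 368 with the replicate block, 31 with all 13 libraries and a library type term, and 1 to 510 with a library left out. For Aza in the wild type they numbered 646, 747 and 1 (DESeq2, no filter, 13 libraries) and 44 to 61 with a library left out. For Aza in dXist they numbered 29 with DESeq2 size factors, 2852 with DESeq2, 2750 without a filter, 131 with the replicate block, 1393 with 13 libraries, and 0 to 4730 with a library left out. For the Aza interaction they numbered 215, 337 and 0 (DESeq2, no filter, 13 libraries) and 28 to 1605. For deletion in EpiSC they numbered 492, 676, 1960 and 2 (DESeq2, no filter, replicate block, 13 libraries) and 0 to 174, and for the deletion interaction 426, 616, 743 and 8, and 1 to 670. The cause of these differences was not tested. With the replicate block the only member calls added were the 5 in EpiSC and Plat in the deletion interaction (edgeR adjusted p = 0.0242). Without a filter on low counts, Thbd was added in EpiSC against XEN, in deletion in XEN and in EpiSC, in Aza in the wild type and in the deletion interaction. Plat was added in deletion in EpiSC and in the deletion interaction.

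Of 750 log2 changes of single members under an alternative, 677 kept direction and side of the threshold, 40 reversed, 31 passed the threshold newly and 2 no longer passed; no call reversed. The replicate block turned the Aza change in dXist to 0.56 for Nid1 and 0.49 for Thbd, the Aza interaction to 0.11 for Lama1 and 1.498 for Nid1, and the deletion interaction to 0.79 for Nid1. For the Aza interaction, 13 libraries gave 0.57 for Lama1, 0.0415 for Nid1 and 0.42 for Hspg2, and Nid1 was 0.0571 with DESeq2 size factors, 0.0571 with DESeq2 and 0.0505 without a filter. With a library left out, ranges that changed sign were, for deletion in XEN, -1.07 to 0.0014 (Lama1), -0.60 to 0.24 (Lamc1) and -0.10 to 0.33 (Sparc). For Aza they were -0.34 to 0.14 (Hspg2) in the wild type and, in dXist, -1.41 to 0.55 (Nid1), -2.68 to 0.19 (Thbd), -0.24 to 0.80 (Plat) and -1.56 to 0.42 (Hspg2). For the Aza interaction they were -0.66 to 0.37 (Lama1), -0.67 to 0.17 (Lamc1), -2.29 to 0.0343 (Col4a1), -2.24 to 0.18 (Col4a2), -0.49 to 1.48 (Nid1), -0.96 to 0.13 (Sparc) and -1.47 to 0.60 (Hspg2). For deletion in EpiSC the range was -0.0032 to 0.50 (Lama1), and for the deletion interaction -0.59 to 0.25 (Lamc1) and -1.14 to 0.80 (Nid1).

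Groups of 2 or 3 libraries limit every test. Where leaving out a library left 1 in a group, the fit assumed that it varies like the other groups. Depth bears most on Thbd, which was at 0.30 CPM in dXist XEN library 2, where 3 counts are 0.112 CPM. Levels depend on the scaling as well, with TMM factors from 0.843 to 1.24. With CPM on raw totals 14 level values were classed as moved and 46 as the same. With mitochondrial, rRNA, Rn7sk and histone genes left out of the totals, these numbers were 28 and 32. With the longest transcript as length they were 13 and 17.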
